A study of Mus musculus with 12 samples.

Results

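The comparison of 90 with 50 days was examined in the 4 arrays whose titles name a genotype and a day but neither clp nor tpa, out of 12 arrays in the series. They form 2 pairs: a wt array of 90 d against a wt array of 50 d, and an Eng+/- array of 90 d against an Eng+/- array of 50 d. Eng+/- is the label of animals or cells heterozygous for Eng (the allele is not given), and Eng encodes endoglin, a co-receptor for Tgf-β and Bmp ligands. On each array the sample carried Cy5 and the common reference, pooled RNA of all conditions, carried Cy3, and the values below are log2 ratios of sample to pool. A difference is the value at 90 d minus the value at 50 d. All 4 arrays lay on a single slide, each group had 1 array, and both wt titles also carry the word pool. The labels do not say what the days count, how many animals or cultures each RNA came from, or whether wt and Eng+/- samples shared litters. The remaining 8 arrays were 4 titled clp and 4 titled tpa, names the labels do not explain, with both genotypes and both days in each. They entered the estimate of the spread, the choice of probes, the normalization of Cy5 signals used alone, and a side-by-side description.

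The labels name E14 mouse embryonic stem cells as the material. On these 4 arrays Pou5f1 and Zfp42, transcription factors that define embryonic stem cells, were above background on 0 arrays, whereas Krt5, a keratin of basal epidermis, and Col1a1, a dermal collagen chain, were above background and saturated on 4. Nanog, another such factor, was above background on 4 arrays and Sox2, shared with hair follicle cells, on 2. In the full list of 15 embryonic stem cell genes, 10 were detected by each of the 4 arrays and 2 by no array. The identity of the material was not tested. Of 16 inner root sheath genes 14 were detected above background by all 4 arrays, as were 25 of 25 skeletal muscle genes. The series title places the study in the hair follicle cycle. In that cycle a follicle alternates between growth (anagen), regression (catagen) and rest (telogen). During growth, dividing matrix cells at the base of the follicle give rise to the keratins of the hair shaft and of the inner root sheath that guides it, while melanocytes pass pigment into the shaft. Signals of the Hedgehog, Wnt, Bmp and Fgf families act on the start and length of each phase. In tissue RNA, fewer cells of a type and less RNA per cell cannot be told apart.

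Inner root sheath keratins and pigment genes were among those with large day differences in the Eng+/- pair, so the regions upstream of the transcription starts of 4 such keratin genes and of Dct, a melanin enzyme, are shown (RefSeq, GRCm38.p6, 250 bases ending at the base before the start, all on the minus strand, written 5′ to 3′). Capitals mark TATAAA, the core promoter motif, CTTTGA, the core of the sites read by Lef1 and Tcf factors, and CATGTG, an E-box of the kind read by Mitf, each on either strand and with no overlaps. Krt25 (chr11:99322952-99323201), Krt27 (chr11:99351119-99351368) and Krt28 (chr11:99374904-99375153) lie in the type I keratin cluster, Krt71 (chr15:101743098-101743347) in the type II cluster, and Dct at chr14:118052247-118052496.
Krt25: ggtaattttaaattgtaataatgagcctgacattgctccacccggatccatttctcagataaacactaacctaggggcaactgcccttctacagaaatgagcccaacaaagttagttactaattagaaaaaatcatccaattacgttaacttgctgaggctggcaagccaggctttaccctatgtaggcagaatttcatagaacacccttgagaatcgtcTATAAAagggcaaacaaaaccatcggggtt
Krt27: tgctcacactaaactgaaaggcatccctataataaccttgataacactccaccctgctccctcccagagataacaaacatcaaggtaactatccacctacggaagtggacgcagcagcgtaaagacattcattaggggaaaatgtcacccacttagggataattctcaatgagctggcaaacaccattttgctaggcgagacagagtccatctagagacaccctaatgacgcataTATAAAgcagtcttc
Krt28: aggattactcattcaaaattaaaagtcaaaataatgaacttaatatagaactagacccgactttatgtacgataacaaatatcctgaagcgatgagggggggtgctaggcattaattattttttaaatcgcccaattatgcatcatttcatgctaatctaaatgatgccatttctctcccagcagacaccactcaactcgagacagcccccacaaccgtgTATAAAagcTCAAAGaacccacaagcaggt
Krt71: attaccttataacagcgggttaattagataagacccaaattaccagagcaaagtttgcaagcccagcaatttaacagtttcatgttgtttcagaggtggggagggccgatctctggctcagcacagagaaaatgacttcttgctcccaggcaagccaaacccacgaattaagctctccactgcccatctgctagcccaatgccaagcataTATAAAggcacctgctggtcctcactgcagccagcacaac
Dct: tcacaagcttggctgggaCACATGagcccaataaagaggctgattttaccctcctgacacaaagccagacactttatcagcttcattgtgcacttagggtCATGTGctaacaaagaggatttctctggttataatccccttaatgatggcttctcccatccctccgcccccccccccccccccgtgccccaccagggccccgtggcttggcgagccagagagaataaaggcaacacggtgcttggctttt
The TATAAA motif stood in all 4 keratin sequences, with 9 to 34 bases between it and the start, and CATGTG stood in that of Dct at 2 places. Of 27018 promoters of this length in the table, 3503 (13%) hold TATAAA, 3796 (14%) CTTTGA and 3307 (12.2%) CATGTG on either strand. Of the 14 inner root sheath genes with a promoter there, 8 hold TATAAA, of 43 keratin-associated protein genes 35, and of 12 melanocyte genes 7 hold CATGTG. These matches describe letters and not bound sites.

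The arrays differed in brightness and in their reference channel. The Eng+/- 90 d array was the brightest of the 4, with a median Cy5 signal of 573 and 1846 saturated Cy5 spots, against medians of 166.5 to 217 and 364 to 563 saturated spots on the other 3. The Cy3 reference of the wt 50 d array stood apart: its median correlation with the reference of the other arrays was 0.974, against 0.991 to 0.993 for the other 3, and its log ratios had an SD of 0.66 against 0.91 to 0.97. Log ratios of wt 90 d, wt 50 d and Eng+/- 50 d correlated at 0.90 to 0.94 with each other, and at 0.68 to 0.78 with Eng+/- 90 d. The Eng+/- 90 d array instead correlated at 0.96 and 0.97 with the tpa 50 d arrays of Eng+/- and wt. Every Eng+/- difference rests on this array as labelled. Every wt difference rests on the wt 50 d array, so the difference of the Cy5 signals alone (quantile normalized, without the reference) is given beside wt values that matter. Across features the wt difference by ratio and by Cy5 alone correlated at 0.556, and the Eng+/- difference at 0.888.

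Eng itself stood at -0.24 (wt 50 d), -0.58 (wt 90 d), -1.43 (Eng+/- 50 d) and -0.86 (Eng+/- 90 d). Both Eng+/- arrays were lower than both wt arrays. The day difference of Eng was -0.35 in wt and 0.57 ± 0.65 in Eng+/- (fitted SE), and neither passed the threshold (limma, adjusted p = 0.90 and 0.68).

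Over all features, the Eng+/- pair held many more differences than the wt pair. Of 25086 features (17168 with a gene symbol), 1321 (5.27%) passed an adjusted p of 0.05 in the Eng+/- pair, 695 higher (2.77%) and 626 lower (2.5%) at 90 d. For 1264 of them (5.04%) the fold was measured or could be bounded, 695 higher (2.77%) and 569 lower (2.27%). Counts of genes that rose or fell below refer to these 1264, and each list count is to be read against these shares of all features. In the wt pair 2 features passed (0.00797%), of which Snhg7, a small nucleolar RNA host gene, has a symbol, and 2838 (11.3%) had an unadjusted p under 0.05. At least 2-fold differences numbered 1304 higher (5.2%) and 1088 lower (4.34%) in Eng+/-, and 131 higher (0.522%) and 883 lower (3.52%) in wt. By Cy5 alone the wt split was 317 higher and 375 lower, by median-centred ratios 967 and 254, and by the authors' processed signals 827 and 1548, so the excess of lower features in wt depends on the scaling. In Eng+/- median centring gave 1396 higher and 710 lower calls.

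The genotypes differed in the day change itself for 803 features (3.2%), 508 with a higher and 295 with a lower change in Eng+/- (11 and 24 by Cy5 alone, 112 and 57 by median centring). For 791 of the 803 the signs were opposite, against 15099 of all 25086 features. Picking features by a large difference between the pairs favours opposite signs by itself, so this count is not a separate result. Of the 1321 features that passed in Eng+/-, 642 (48.6%) were among the 803. Only 5 features were at least 2-fold higher and 32 at least 2-fold lower in both pairs, which is 3.82% and 3.62% of the wt sets and 0.383% and 2.94% of the Eng+/- sets. By contrast 254 were lower in wt and higher in Eng+/- (28.8% of the wt set and 19.5% of the Eng+/- set), and 30 the reverse (22.9% and 2.76%). These overlaps were counted by ratio and not by Cy5 alone. In the mean of both genotypes 0 features passed in limma (smallest adjusted p 0.84, 1205, or 4.8%, with an unadjusted p under 0.05).

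**Figure D1:**
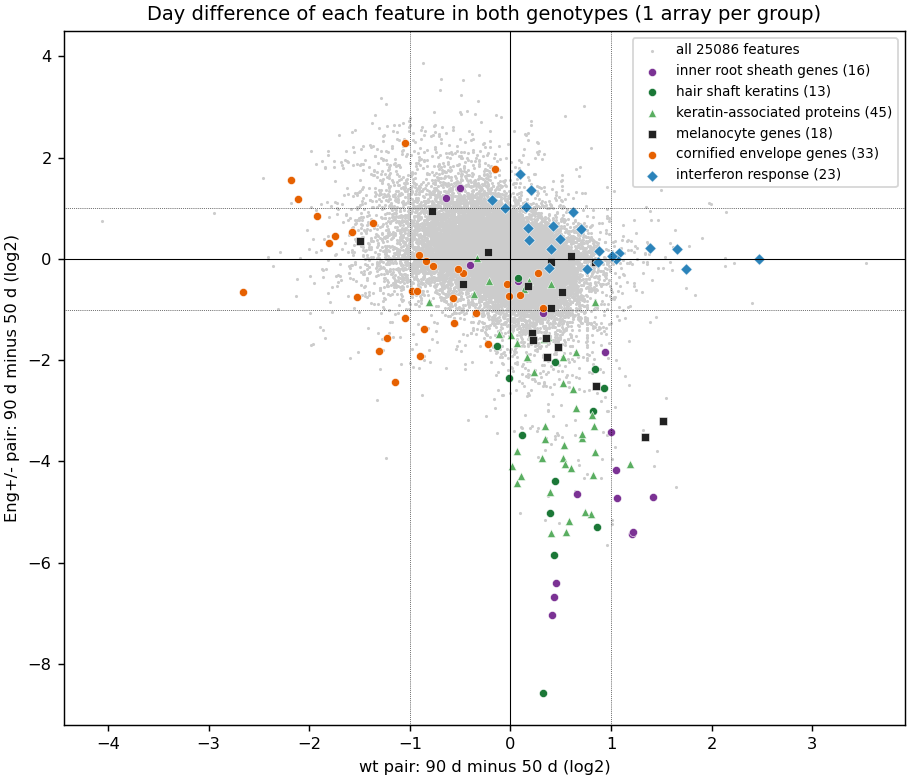
Each point is a feature, with the wt difference (90 d minus 50 d, log2) on the x axis and the Eng+/- difference on the y axis, and coloured points are members of 6 gene lists. Inner root sheath, hair shaft and keratin-associated genes run downward to -8.58 in Eng+/- at wt differences of -0.81 to 1.42, cornified envelope genes lie to the left, and interferon genes to the right.

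With 1 array a group, the spread came from the 8 clp and tpa arrays (3 residual degrees of freedom), and the lone arrays were assumed to vary like them. The number of calls therefore turned on single arrays of other treatments: in Eng+/- it was 7 without either clp 50 d array, 169 and 180 without the Eng+/- or wt tpa 90 d array, 697 and 688 without the tpa 50 d arrays, and 2757 and 2792 without the clp 90 d arrays. For the difference between genotypes it was 0 without either clp 50 d or either tpa 90 d array, 374 and 377 without the tpa 50 d arrays, and 2572 and 2643 without the clp 90 d arrays. With the authors' processed signals 0 features passed in wt, in Eng+/- or for the difference (smallest adjusted p 0.153, 0.0612 and 0.0945). Each ratio below comes from its own array alone, but the choice of probe and the values by Cy5 alone drew on all 12 arrays.

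The inner root sheath showed the largest list median. Of 16 tested genes, 8 fell and 1 rose between 50 and 90 d in Eng+/- (over all features 2.27% fell and 2.77% rose), with a median of -4.41 against 0.03 over all features, while in wt none passed and the median was 0.56 against -0.04. Krt27, a type I keratin of the inner root sheath, stood at 1.01 and 1.43 on the wt arrays of 50 and 90 d, at -0.20 on Eng+/- 50 d and at -7.23 on Eng+/- 90 d. Krt27 was thus above the pool on both wt arrays, near it on Eng+/- 50 d and far below it on Eng+/- 90 d. It fell by 7.03 ± 0.81 in Eng+/- (adjusted p = 0.017). In wt its difference was 0.42 (0.19 by Cy5 alone), with the 90 d spot saturated. Krt71, the type II partner keratin of the sheath, read -1.07, -0.62, -0.31 and -6.71 in the same order and fell by 6.40 ± 0.79 in Eng+/- (adjusted p = 0.019), with both wt spots saturated.

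Krt25 and Krt28, further type I sheath keratins, read -1.28 and 0.67 at wt 50 d, -0.07 and 1.88 at wt 90 d, -2.07 and -0.22 at Eng+/- 50 d, and -7.50 and -5.62 at Eng+/- 90 d. Both fell in Eng+/-, with differences of -5.43 ± 0.69 and -5.40 ± 0.74 (adjusted p = 0.020 and 0.022), and in wt their differences were 1.21 and 1.22 (0.32 and 0.46 by Cy5 alone), with both 90 d spots saturated. Krt73, a sheath cuticle keratin, went from -0.89 to -5.60 in Eng+/- (adjusted p = 0.029) and from -0.47 to 0.95 in wt. Its wt difference was 1.42 by ratio and 0.37 by Cy5 alone. Tchh, trichohyalin, the protein that hardens the sheath with the keratins, was saturated at Eng+/- 50 d and also fell, with a difference of -6.67 (-4.76 by Cy5 alone, adjusted p = 0.030). Both wt spots of Tchh were saturated, and 6 of the 16 sheath genes were saturated on a wt array, which limits their wt differences. The trichohyalin relative Tchhl1 (-4.64) and S100a3, a calcium-binding protein of the hair cuticle (-3.43), also fell. Padi3, which modifies trichohyalin, read -4.73 ± 1.08 without passing (adjusted p = 0.053). Gata3, a transcription factor needed for the sheath lineage, went the other way: it rose by 1.39 ± 0.26 in Eng+/- (adjusted p = 0.037). The day change differed between the genotypes, with adjusted p from 0.030 to 0.047, for 7 of the 16 genes, against 3.2% of all features: lower in Eng+/- for Krt25, Krt27, Krt28, Krt71, Krt73 and S100a3, and higher for Gata3.

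**Figure D2:**
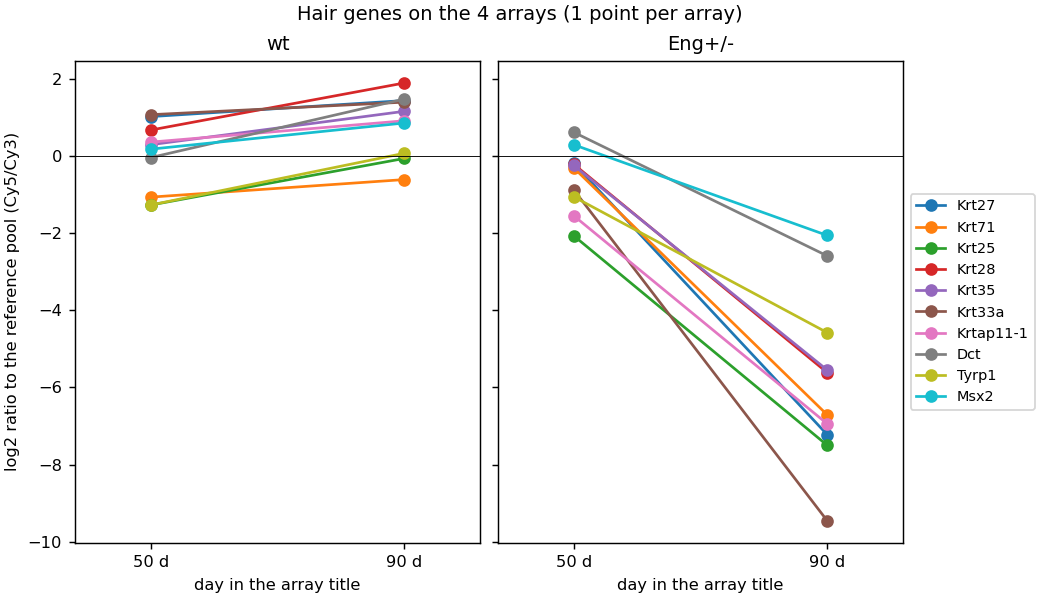
Log2 ratio to the reference pool of 10 hair and pigment genes, with 1 point per array, at 50 and 90 d in wt (left) and Eng+/- (right). Every line in wt ends between -0.62 and 1.88 and every line in Eng+/- falls, to between -2.06 and -9.46.

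Hair shaft keratins followed the same order of arrays. All 13 tested shaft keratins were lower at 90 d in Eng+/- and 12 of them at least 2-fold, with a median of -3.0. Of the 13, 4 passed, against 2.27% of all features that fell. In wt the median was 0.43, the range -0.13 to 0.93, and none passed. On a wt array 4 of the 13 were saturated, Krt33a and Krt86 on both days and Krt34 and Krt35 at 90 d, which limits their wt differences. Krt33a, a type I keratin of the shaft cortex, read 1.06, 1.39, -0.88 and -9.46 on wt 50 d, wt 90 d, Eng+/- 50 d and Eng+/- 90 d. Its fall by 8.58 ± 1.3 in Eng+/- was the greatest of all named genes (adjusted p = 0.026). Krt35, a matrix and cuticle keratin switched on early in the shaft, read 0.29, 1.15, -0.25 and -5.55 and fell by 5.30 ± 0.54 (adjusted p = 0.016). Krt86 and Krt34, cortex keratins, also fell, with differences of -5.02 and -5.84 (adjusted p = 0.026 and 0.039). Krt31 read -3.0 ± 0.72 and did not pass (adjusted p = 0.060). The genotypes differed in the day change of Krt35 and Krt86 (adjusted p = 0.028 and 0.048), and not at the threshold for Krt33a (adjusted p = 0.051).

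Shaft keratins were already lower at 50 d in Eng+/- than in wt, a difference not tested. Krt34 stood at -2.01 against 0.86 and Krt31 at -2.35 against -0.33. The list median was -0.90 at Eng+/- 50 d and 0.15 at wt 50 d, against -5.34 and 0.55 at 90 d. The summed Cy5 signal of the shaft keratins was 237918 and 300784 on the wt arrays of 50 and 90 d, and 86585 and 4697 on the Eng+/- arrays. These sums join probes of unlike brightness and serve only to set arrays side by side.

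Keratin-associated proteins, which cross-link the shaft keratins, were lower as well. Of 45 tested genes 44 were lower at 90 d in Eng+/-, 37 at least 2-fold, and 3 passed (Krtap11-1, Krtap17-1 and Krtap3-1), with a list median of -3.31. Over all features 2.27% fell in Eng+/-. In wt 40 of 45 were higher and 1 at least 2-fold, with a median of 0.40, and 5 of the 45 were saturated on a wt array. Krtap11-1 read 0.35, 0.91, -1.55 and -6.94 on wt 50 d, wt 90 d, Eng+/- 50 d and Eng+/- 90 d and fell by 5.39 ± 0.67 in Eng+/- (adjusted p = 0.019). Krtap17-1, found in the cortex, went from -2.48 to -7.48 (adjusted p = 0.041). Many of these genes are close copies of each other and their probes may share signal. Vsig8, a membrane protein of the hair follicle, read -0.16, 0.80, -1.51 and -7.16 and fell by 5.65 ± 0.84 (adjusted p = 0.026).

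Regulators upstream of the shaft moved less. Of 14 hair matrix regulators 13 were lower in Eng+/- (median -0.82) and 1 fell: Msx2, a homeobox factor of the matrix that acts under Bmp signals, read 0.17, 0.85, 0.29 and -2.06 and fell by 2.35 ± 0.31 (adjusted p = 0.022). Hoxc13, which drives shaft keratins, read -1.87 ± 0.63 and did not pass (adjusted p = 0.13). In wt 8 of the 14 were lower, with a median of -0.06. Among 17 Hedgehog genes 3 fell in Eng+/- (list median -0.23) and none passed in wt (-0.02). These counts of 1 and 3 stand against 2.27% of all features that fell in Eng+/-.

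Shh, the Hedgehog ligand made by the growing follicle, stood at 0.14 and 1.07 on the wt arrays and at 1.32 on Eng+/- 50 d, and was not well above background on Eng+/- 90 d. Its difference was -1.42 ± 0.21 by the measured values of 1.32 and -0.10 (adjusted p = 0.026), or -2.11 by Cy5 alone. Gli1, the transcription factor that reports Hedgehog activity, read 0.00, 0.30, 0.83 and -1.50 and fell by 2.33 ± 0.23 (adjusted p = 0.016). Smo, the signal transducer, fell by 0.82 (adjusted p = 0.043), whereas Ptch1, the receptor, read -0.27 ± 0.36 (adjusted p = 0.74). Both Hedgehog genes with the greatest falls were above their wt 50 d value at Eng+/- 50 d.

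Of 21 Tgf-β and Bmp receptors, co-receptors and Smad factors 2 fell in Eng+/-, against 2.27% of all features (list median -0.05): Acvr1, a type I Bmp receptor, by 1.25 ± 0.28 (adjusted p = 0.049, with its other probe at -0.62), and Smad2, a Tgf-β signal transducer, by 1.0 ± 0.17 (adjusted p = 0.030). Bmpr2, the type II Bmp receptor, read -1.76 in wt and 1.81 ± 0.64 in Eng+/-, neither passing, and its wt difference was 0.27 by Cy5 alone. Of 19 ligands 1 fell, Bmp3, by 0.96 ± 0.20 (adjusted p = 0.047). Among 19 Bmp antagonists and response genes, Id1, a direct Bmp target, read 0.91, 1.23, 1.33 and -0.57 and fell by 1.90 ± 0.18 (adjusted p = 0.016), and Twsg1, an extracellular Bmp modulator, rose by 1.0 ± 0.19 (adjusted p = 0.039). In wt none of these 3 lists had a member that passed, and their medians were -0.01, -0.03 and -0.04.

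Of 40 Wnt pathway genes 1 fell in Eng+/- (median -0.23), Sfrp1, a secreted Wnt inhibitor, by 1.27 ± 0.25 (adjusted p = 0.039). Of 15 Fgf pathway genes 1 fell, Dusp6, a phosphatase induced by Fgf signals, by 1.63 ± 0.31 (adjusted p = 0.038). Fgf5, the ligand that ends follicle growth, read 1.39 in wt (2.43 by Cy5 alone) and -1.24 ± 0.69 in Eng+/-, and passed in neither pair. Over all features 2.27% fell in Eng+/-, so 1 of 40 Wnt genes is near that share, and the Fgf count rests on 1 gene. The list of 22 dermal papilla genes had medians of -0.20 in wt and -0.15 in Eng+/-.

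Pigment genes fell with the shaft genes in Eng+/-, where 2.27% of all features fell and 2.77% rose. Of 18 melanocyte genes 6 fell and none rose (median -0.81), while the wt median was 0.38 (0.77 by Cy5 alone) and none passed. Dct, dopachrome tautomerase, read -0.05, 1.47, 0.61 and -2.59 on wt 50 d, wt 90 d, Eng+/- 50 d and Eng+/- 90 d. Its fall by 3.20 ± 0.22 in Eng+/- (adjusted p = 0.0064) held in 20 of 21 alternative settings (adjusted p 0.0064 to 0.061), the exception being the authors' processed signals. Tyrp1, a melanosomal enzyme, read -1.28, 0.06, -1.06 and -4.58 and fell by 3.52 ± 0.49 (adjusted p = 0.023). Mc1r, the melanocortin receptor that sets pigment type, fell by 2.51 ± 0.31 (adjusted p = 0.019), and Gpr143, Slc24a5 and Slc45a2, which act in melanosomes, also fell. In wt Dct and Tyrp1 were 1.52 and 1.34 higher at 90 d (0.71 and 1.59 by Cy5 alone). The difference between the genotypes passed for Dct, Tyrp1 and Mc1r (-4.72, -4.86 and -3.36, adjusted p = 0.014, 0.030 and 0.029).

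Cell division genes were lower at 90 d in Eng+/- for 27 of 30 tested, with a median of -0.69 and 4 that fell, and higher in wt for 23 of 30, with a median of 0.14. Rrm2, a subunit of the enzyme that makes deoxynucleotides, read 0.95, 1.49, 1.82 and -0.50 and fell by 2.33 ± 0.31 (adjusted p = 0.021). Aurka, a mitotic kinase, fell by 1.40 ± 0.21 (adjusted p = 0.026), Top2a, a DNA topoisomerase, by 1.24 ± 0.20 (adjusted p = 0.029) and Birc5, survivin, by 1.18 ± 0.25 (adjusted p = 0.044). Mki67, the proliferation antigen, read -0.71 ± 0.39 and did not pass (adjusted p = 0.34). Of 20 immediate early genes 5 fell in Eng+/-, with a list median of -0.01, and Jund, an AP-1 subunit, fell most, by 2.11 ± 0.34 (adjusted p = 0.029). Both list counts stand against 2.27% of all features that fell.

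**Figure D3:**
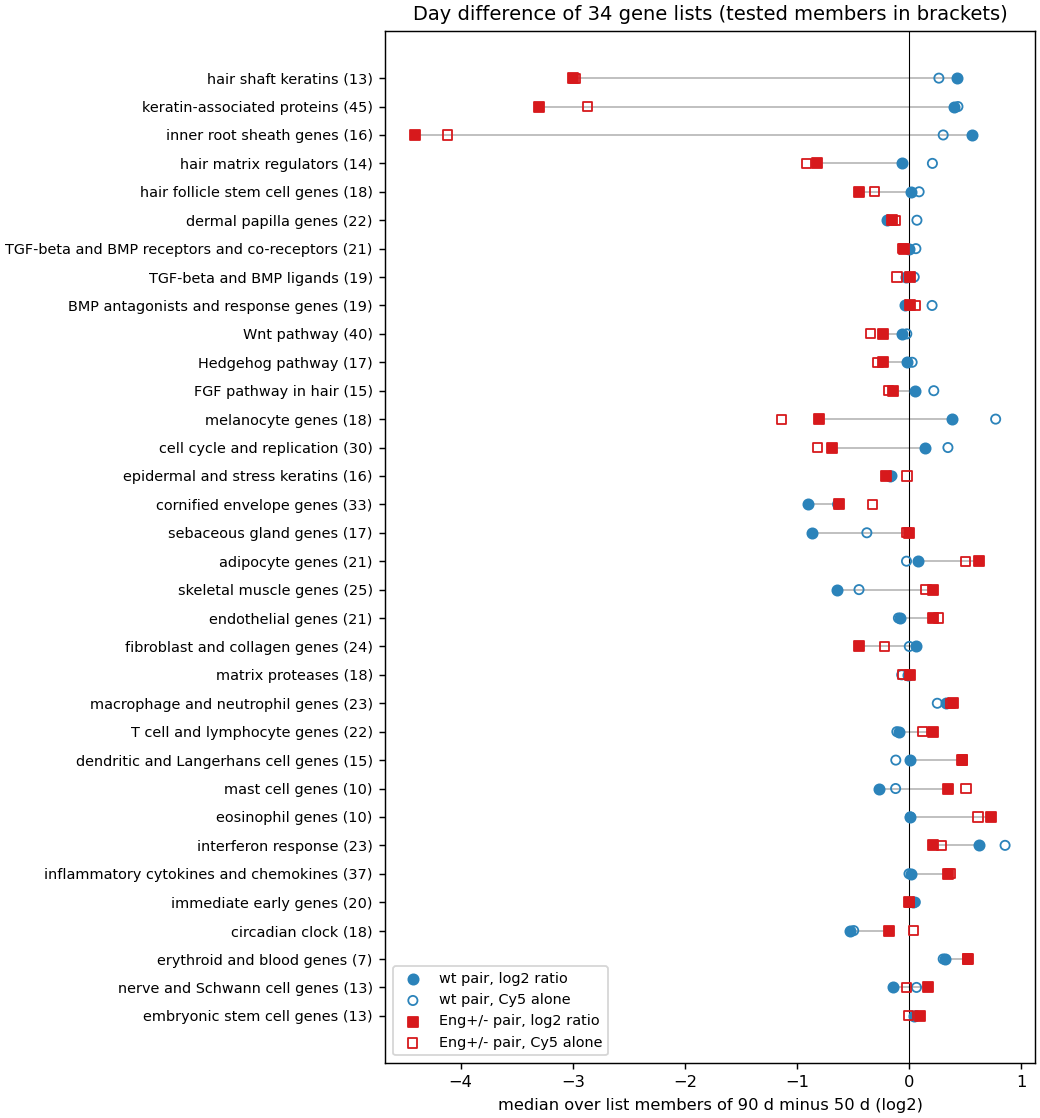
Median day difference (90 d minus 50 d, log2) of 34 gene lists in the wt pair (blue circles) and the Eng+/- pair (red squares), with filled symbols for ratios to the pool and open symbols for Cy5 alone. The 3 lists of hair structure lie between -3.0 and -4.41 in Eng+/- and between 0.40 and 0.56 in wt, and no other list median lies beyond 1 in either pair by ratio.

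In the wt pair the lists of cornified envelope, sebaceous gland and skeletal muscle genes had the lowest medians, with no member passing. They hold a small part of the 883 features at least 2-fold lower in wt (3.52% of all features), and concentration in these lists was not tested. Of 33 cornified envelope genes 30 were lower at 90 d in wt and 14 at least 2-fold (median -0.90, and -0.64 by Cy5 alone). Krt1, the main keratin of suprabasal epidermis, read 0.81 at wt 50 d and -2.14 at wt 90 d, against 0.01 and 0.90 on the Eng+/- arrays. Its wt difference was -2.95 (-2.66 by Cy5 alone, adjusted p = 0.30) and in Eng+/- it was 0.90, with the 90 d spot saturated. Lce1k, a late envelope protein, read -0.28 and -2.74 in wt and -1.24 and 0.35 in Eng+/-, and for both genes wt 90 d was the lowest of the 4 arrays. The day change differed between the genotypes for both, by 3.85 and 4.06 (adjusted p = 0.032 and 0.048).

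Hrnr, hornerin, had a wt difference of -2.66 and an Eng+/- difference of -0.66 ± 0.63, and Flg2, a filaggrin relative, -1.37 and 0.70. Krt77 and Krt78, keratins of differentiating epidermis, read -1.42 and -1.60 in wt, and the genotype difference passed for Krt78 (2.41, adjusted p = 0.039). In Eng+/- the cornified envelope median was -0.63 (-0.33 by Cy5 alone), with 11 of the 33 genes saturated on an array. There 5 of 33 fell, against 2.27% of all features. Among them S100a9, an alarm protein of inflamed epidermis and neutrophils, fell by 2.43 ± 0.31 (adjusted p = 0.020). Those 5 were S100a9, Lce3a, Lce3f, Sprr2e and Sprr2f, genes that rise in stressed epidermis. In wt S100a9 was also lower at 90 d (-1.15, and -0.73 by Cy5 alone).

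Of 16 epidermal and stress keratins 2 fell and 1 rose in Eng+/- (over all features 2.27% fell and 2.77% rose), with medians of -0.17 in wt and -0.21 in Eng+/-. Krt6b, a keratin of activated and follicular epithelium, read -0.81 and -2.05 in wt and 2.62 and -1.31 in Eng+/-. Its difference was -1.24 in wt, and in Eng+/- it fell by 3.93 ± 0.47 (adjusted p = 0.019), with its other probe at -1.61. Krt16, its partner, read 0.31 and -0.65 in wt and 1.74 and -0.39 in Eng+/-, where it fell by 2.13 ± 0.24 (adjusted p = 0.017). Both genes were highest on the Eng+/- 50 d array. Krt19, a simple keratin of the bulge and glands, rose by 1.98 ± 0.29 in Eng+/- (adjusted p = 0.026).

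Sebaceous genes were lower at 90 d in wt for 16 of 17 tested (median -0.87, and -0.38 by Cy5 alone). At least 2-fold lower were 7 of the 17, against 3.52% of all features. In Eng+/- the median was -0.01, and 6 of the 17 were saturated on an array. Awat1, a wax synthase of the gland, read 1.32 and 0.03 in wt and 0.79 and 1.63 in Eng+/-. Dgat2l6, another acyltransferase of the gland, had a wt difference of -1.41. Skeletal muscle genes, a tissue that can lie beneath sampled skin, were lower in wt for 23 of 25 (-2.18 to 0.30, median -0.65, and -0.45 by Cy5 alone). Of the 25, 5 were at least 2-fold lower. In Eng+/- 15 of the 25 were higher (median 0.21) and 13 were saturated on an array. On a wt array 5 of the 25 were saturated.

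Atp2a1, the calcium pump of fast muscle, went from 1.48 to -0.70 in wt and from -0.21 to 0.91 in Eng+/-. Ckm, muscle creatine kinase, and Des, desmin, had wt differences of -1.55 and -1.14. The summed Cy5 signal of the muscle list was 513385 and 415999 on the wt arrays of 50 and 90 d and 487860 and 374868 on the Eng+/- arrays, and all 25 genes were above background on all 4. Muscle, sebaceous and envelope genes were thus lower together in wt, and the part of tissue makeup in these differences was not tested. Neb, nebulin of the muscle thin filament, rose by 3.87 ± 0.75 in Eng+/- (adjusted p = 0.038) by 1 probe, while its other probe read 0.33.

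Fat cell genes were higher at 90 d in Eng+/- (median 0.62 over 21 genes, 8 at least 2-fold, against 5.2% of all features) and level in wt (0.08). Fasn, fatty acid synthase, read 0.38 and -0.55 in wt and 0.04 and 1.81 in Eng+/- and rose by 1.77 ± 0.34 (adjusted p = 0.039). Retn, resistin, was saturated at Eng+/- 90 d and at least 2.73-fold higher than at 50 d (adjusted p = 0.022). Ucp1, the uncoupling protein of brown fat, was the third member that passed, and it was not well above background at 50 d. Of the 21 genes 10 were saturated on an Eng+/- array.

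**Figure D4:**
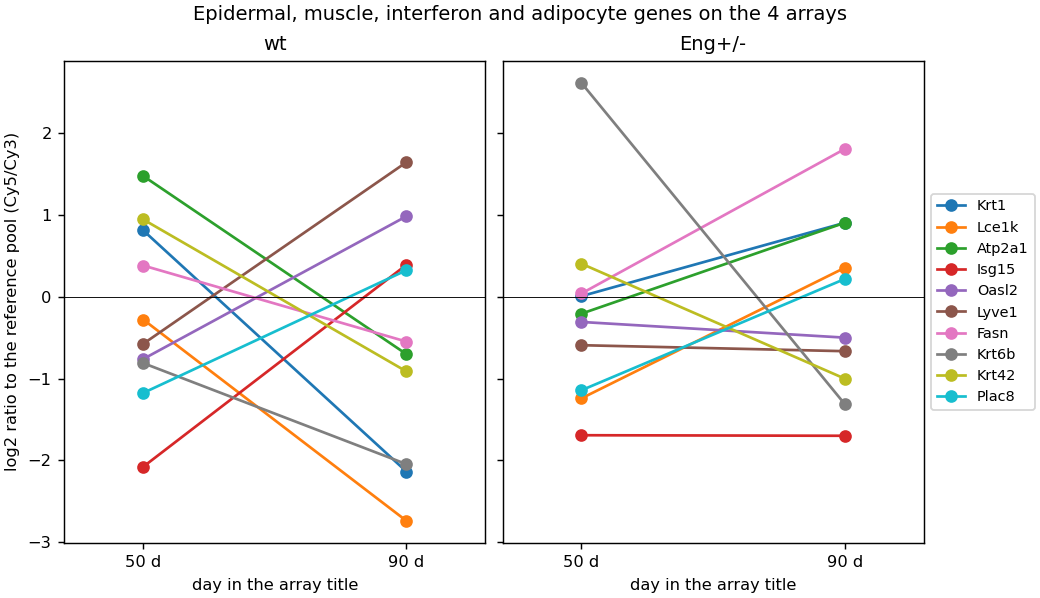
Log2 ratio to the reference pool of 10 genes of epidermis, muscle, interferon response, fat and myeloid cells, with 1 point per array, at 50 and 90 d in wt (left) and Eng+/- (right). Krt1, Lce1k and Atp2a1 go down in wt and up in Eng+/-, Isg15, Oasl2 and Lyve1 go up in wt and differ by -0.19 to -0.01 in Eng+/-, and Krt42 and Krt6b go down in both.

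Interferon genes were mostly higher at 90 d in wt. Of 23 tested 21 were higher and 7 at least 2-fold, against a background of 0.522%, with a median of 0.62 (0.85 by Cy5 alone) and none passing. Isg15, a ubiquitin-like interferon product, read -2.08 and 0.39 in wt and -1.69 and -1.70 in Eng+/-. It was 2.47 higher in wt (2.70 by Cy5 alone, adjusted p = 0.42) by 1 probe and 0.27 higher by its other probe, and in Eng+/- its difference was -0.01. Oasl2, Oasl1 and Rsad2, antiviral effectors, were 1.75, 1.66 and 1.38 higher in wt, and -0.19, 0.19 and 0.21 in Eng+/-.

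In Eng+/- the median was 0.21, and the 4 of 23 that rose were other genes of the list: Gbp2, a guanylate-binding protein induced by interferon gamma, by 1.68 ± 0.21 (adjusted p = 0.019), Cxcl9, a chemokine for T cells, by 1.35 ± 0.18 (adjusted p = 0.022, with its other probe at 0.41), and B2m and Igtp. The wt differences of Gbp2 and Cxcl9 were 0.10 and 0.20. Whether type I and gamma-induced members differ between the pairs was tested only gene by gene: the difference passed for Gbp2 (1.58 ± 0.29, adjusted p = 0.041) and not for Isg15 (-2.48, adjusted p = 0.23).

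Immune cell and vessel genes were spread over small changes. In Eng+/- Cxcl13, a B cell chemokine, rose by 1.67 ± 0.22 (adjusted p = 0.021), Ccl24, an eosinophil chemokine, by 1.81 ± 0.28 (adjusted p = 0.026), Mrc1, the macrophage mannose receptor, by 1.63 ± 0.35 (adjusted p = 0.046), and Mcpt4, a mast cell protease, by 1.66 ± 0.37 (adjusted p = 0.049). All 10 tested eosinophil genes were higher at 90 d in Eng+/- (median 0.73) and none passed. Plvap and Vwf, endothelial genes, rose by 1.21 and 1.12 (adjusted p = 0.044 for both, the other probe of Plvap at 0.07) and read -0.64 and -0.62 in wt. In wt Lyve1, a receptor of lymphatic vessels and some macrophages, went from -0.58 to 1.65 without passing (2.42 by Cy5 alone), against -0.59 and -0.67 in Eng+/-.

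Clock genes were lower at 90 d in wt for 12 of 18 (median -0.53, and -0.50 by Cy5 alone) and none passed. Dbp, a clock output factor, read 0.87 and -0.99 in wt and 0.36 and 0.14 in Eng+/-. Rora and Nr1d1, factors of the opposing clock arms, had wt differences of -1.34 and -0.90. The sources used here give no time of day for sampling.

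Some genes were higher or lower alike in both pairs. Plac8, an immune and epithelial gene, was 1.5 higher in wt and 1.36 ± 0.46 higher in Eng+/-, Ccl6, a myeloid chemokine, 1.98 and 1.09, and Cd209f, a macrophage lectin, 2.00 and 1.08, the last with a saturated 90 d spot. None of these 3 passed in either pair. Krt42, an epithelial keratin, read 0.95 and -0.91 in wt and 0.40 and -1.0 in Eng+/-, where it fell by 1.41 ± 0.27 (adjusted p = 0.038). Myo3b, a myosin with a kinase domain, had a wt difference of -1.33 and fell by 2.78 ± 0.43 in Eng+/- (adjusted p = 0.027). Gsdmc3 (by its other probe -0.49 and -0.50), Il1f6 and Stfa2 were lower in both pairs and passed in neither. Spry2, an Fgf pathway inhibitor, read -1.99 in wt and -1.70 in Eng+/- by ratio, but 0.19 in wt by Cy5 alone.

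Outside the lists, the genes that rose most in Eng+/- included Ifitm6 (3.33 ± 0.37, adjusted p = 0.016), a myeloid membrane protein, Mup5 (3.63 ± 0.71, adjusted p = 0.040), a major urinary protein, and Tns1 (3.11 ± 0.39, adjusted p = 0.019, its other probe at 0.97), a focal adhesion protein. Mup5 belongs to a family of near-identical copies. In wt the difference of Ifitm6 was -0.70 by ratio and 1.13 by Cy5 alone. With saturated spots at 90 d, Cox8b, a cytochrome oxidase subunit of muscle and fat, rose by 3.17 (2.46 by Cy5 alone) and S100a11, a calcium-binding protein, by 2.65 (3.16 by Cy5 alone), while Ly6a, the Sca-1 surface protein, was at least 6.80-fold higher (adjusted p = 0.029, 0.025 and 0.016). Ndufa11, a subunit of respiratory complex I, rose by 2.83 ± 0.44 (adjusted p = 0.027) and read -1.34 in wt, or -0.61 by Cy5 alone.

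In wt, large differences outside the lists included those of Snhg7, which was saturated at 50 d and whose difference was -4.06 (-5.68 by Cy5 alone, adjusted p = 0.018), and Ptpn5, a tyrosine phosphatase, 2.41 higher. Snhg7 stood at 2.33 on wt 50 d and at -1.73, -1.78 and -1.04 on wt 90 d, Eng+/- 50 d and Eng+/- 90 d, so the wt 50 d array was high and the other 3 alike. Pgr, the progesterone receptor, had a wt difference of 2.13 by 1 probe, not well above background at 50 d, and of 0.40 by its other probe. Has2, the hyaluronan synthase, read 0.16 and 2.00 in wt and 0.82 and 0.11 in Eng+/-. Adamts4, a proteoglycan protease, read 0.09 and 1.54 in wt and 1.21 and 0.06 in Eng+/-, where it fell by 1.15 ± 0.17 (adjusted p = 0.026). Stfa3, a cysteine protease inhibitor, had a wt difference of -2.41 and 0.04 in Eng+/-.

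Set beside the pairs with a named treatment, the Eng+/- pair was not alone in having lower hair genes at 90 d. The median of the inner root sheath list was -0.10 in the clp wt pair, -1.91 in the clp Eng+/- pair, 4.81 in the tpa wt pair and 3.06 in the tpa Eng+/- pair, against 0.56 and -4.41 here. The keratin-associated list gave -0.34, -2.56, 5.94 and 2.90, against 0.40 and -3.31. Shaft keratins gave -0.38, -2.05, 4.49 and 2.31, against 0.43 and -3.0. The order of the 6 pairs was the same for these 3 lists, and the Eng+/- pair with no named treatment lay lowest. The differences between these pairs were not tested, and treatment and slide cannot be told apart.

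**Figure D5:**
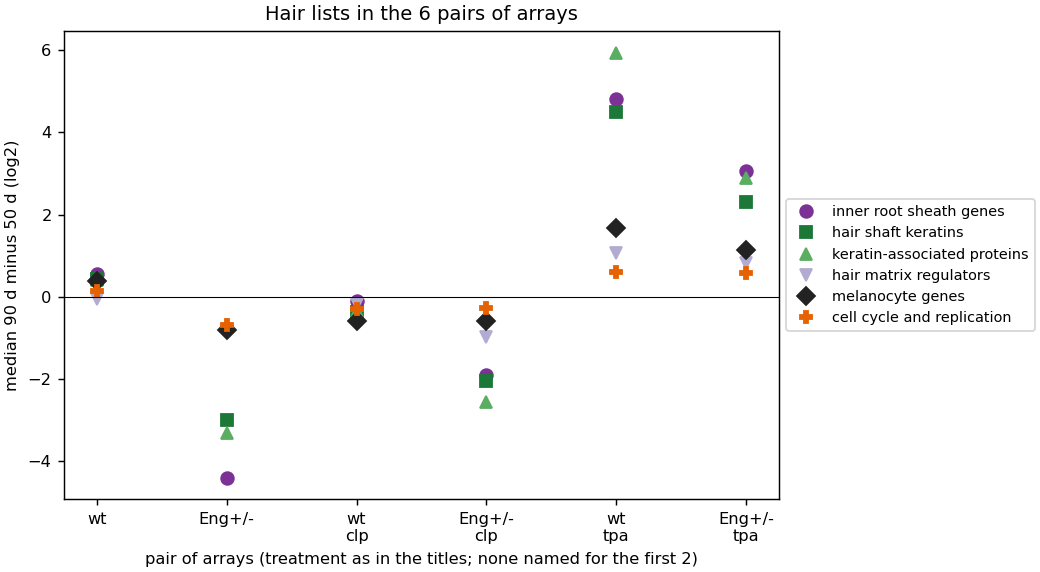
Median day difference (90 d minus 50 d, log2) of 6 gene lists in the 6 pairs of arrays, each pair being 2 single arrays of the same genotype and treatment. The Eng+/- pair and both clp pairs lie below 0 for all 6 lists, and both tpa pairs lie above 0.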

How the data were processed

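RNA of 12 samples was measured on Agilent 2-colour 4x44K mouse arrays on 3 slides. Per the labels, sample RNA carried Cy5 and the pooled reference Cy3. The series text instead places wt RNA in Cy3 and mentions swapped dyes, which the array labels do not show. The deposited scanner files hold foreground and background intensity values of both channels, extracted with Agilent Feature Extraction 10.7.3.1 per the file headers and 10.0 per the submitters' processing notes. The deposited value table holds the authors' log10 ratio of processed Cy5 to processed Cy3 signals, which were background-subtracted and dye-normalized per the file headers. These values equalled the scanner files' log10 ratio at all 44397 spots of every array (tolerance 1e-06), with a median of 0 on each.

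Median intensities were corrected in R 4.3.3 with limma 3.58.1 (normexp, offset 50, then loess within each array). Of 39429 probes, 976 with an outlier flag on any array were left out, and 30499 had Cy5 well above background on at least 2 arrays. Probes were named by accession through RefSeq (22343 named), and the brightest probe stood for a gene. No coordinates of the probes are given. A limma model gave each of the 4 arrays its own mean, with 4 condition means and a genotype term for the clp and tpa arrays (3 residual degrees of freedom, eBayes with trend, prior 4.20). The mean of both genotypes came from an additive model of all 12 arrays (5 residual degrees of freedom). P-values are two-sided and adjusted by the Benjamini-Hochberg method over 25086 features. For the pairs and their difference, they measure only how the clp and tpa arrays scattered around condition and genotype. That scatter may be biological or technical, and the 4 compared arrays add nothing to it. For the mean of both genotypes the scatter came from all 12 arrays. The models were also run on simulated data in which the 4 arrays were given the same spread as the clp and tpa arrays. That run therefore could not test whether the 4 arrays vary like the others. Offsets and saturation shrink differences of dim and bright probes. Where a spot was saturated or not well above background on 1 array of a pair, "at least" gives the brighter Cy5 level over the dimmer one, after loess and quantile normalization of mean intensity, with a dim spot set to the lowest signal above background, which is open to dye bias without dye swaps. Such a value is printed only where it lies below the fold by ratio and by Cy5 alone; otherwise the difference is given with the state of the spot, and its size is approximate.

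The 34 gene lists (722 genes, 674 tested) and the comparison were chosen with earlier results of these data known, so list counts are descriptions. Genes were named from those that met a rule, and not every gene that met it is named here. The rule took the 10 largest rises and falls of each pair and those shared by or opposite in both pairs. It also took up to 6 genes per list, and Eng, all with a symbol and the same direction by the processed signals. Further members were named after their values were seen, where a count was small or as a contrast: Krt31, Krtap3-1, Tchhl1, Gata3, Krt77, Flg2, Lce3a, Lce3f, Sprr2e, Sprr2f, Smo, Twsg1, Slc24a5, Birc5, Mki67, Nr1d1, Ucp1, B2m and Igtp. Motifs were also chosen then. For promoters, the first start listed per symbol was used. Alternatives covered normalization, channel, filters, saturation, probe choice, moderation, the model and each array left out, and 1 was added after seeing the data.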

Additional observations from a re-analysis of the deposited data

Results flagged for a closer look

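The day change differed between the genotypes for 803 features, tested as the difference of the pairs in limma (adjusted p from 0.0145 upward). The 44 genes among them that are named in this text are given as Eng+/- minus wt on the log2 scale. They are a chosen part of the 803. Genes such as Paqr8 (-2.32), Lce1h (3.73) and Fxyd3 (3.39) also met the naming rule and differed, and are not described. Each rests on 4 single arrays, and the calls depended on arrays of other treatments as described above.

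Among hair structure genes the difference was -7.44 for Krt27, -6.86 for Krt71, -6.64 for Krt25, -6.62 for Krt28, -6.61 for Vsig8, -6.17 for Krt35, -6.13 for Krt73, -5.94 for Krtap11-1, -5.42 for Krt86 and -4.43 for S100a3. The wt spots of Krt71 and Krt86 were saturated on both days, and those of Krt25, Krt27, Krt28, Krt35 and Krtap11-1 at 90 d, so their wt part is not a measured fold. Pigment genes gave -4.86 for Tyrp1, -4.72 for Dct and -3.36 for Mc1r. Regulators of the follicle gave -3.03 for Msx2, -2.63 for Gli1, -2.35 for Shh, -2.22 for Id1, -1.45 for Bmp3, 1.66 for Twsg1 and 1.89 for Gata3.

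Division genes gave -2.87 for Rrm2, -2.07 for Top2a and -1.75 for Aurka, and AP-1 subunits -2.51 for Jund and -1.48 for Junb. Matrix enzymes gave -2.60 for Adamts4 and -2.55 for Has2. Epidermal and glandular genes gave 4.06 for Lce1k, 3.85 for Krt1, 2.41 for Krt78 and 2.12 for Awat1. Metabolic and fat genes gave 4.46 for Cox8b, 4.17 for Ndufa11, 2.70 for Fasn and 2.07 for Retn. Immune and vessel genes gave 4.02 for Ifitm6, 2.99 for Ly6a, 1.99 for Cd3d, 1.58 for Gbp2, 1.85 for Plvap and 1.74 for Vwf. The wt part of Ifitm6 turned from -0.70 by ratio to 1.13 by Cy5 alone. Snhg7 gave 4.80, S100a11 3.80 and Tns1 3.43.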

How the results depend on the processing

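The labels carry no replicate numbers and no animal or litter link, so arrays could be paired only by genotype. Days were set against each other within genotype, and the 4 arrays alone, fitted by genotype and day, gave 0 features (smallest adjusted p 1). The features passing in Eng+/- (1321) became 2106 with median centring, 0 with the authors' processed signals, 468 with Cy5 alone, 681 without the trend and 2815 without the 2 arrays whose reference channel stood apart (wt 50 d and wt clp 90 d, an alternative added after seeing the data), and 7 to 2792 with an array left out. The difference between genotypes (803) became 169, 0, 35 and 371 under the first 4 and 1418 with a genotype term within each treatment, and 0 to 2643 with an array left out. In wt 2 features became 1 with median centring, without a filter or with a filter on both channels, 0 with processed signals or without saturated probes, 12 with Cy5 alone, and 1 to 3 with an array left out. In the mean of both genotypes 0 became 1 in the model with a mean for each array and 2 without the 2 arrays standing apart, and 0 to 646 with an array left out (wt 90 d giving 646, wt 50 d 7 and Eng+/- 90 d 1). At least 2-fold differences in wt (1014) became 2375 with processed signals. In Eng+/- (2392) they became 6943 with median centring and 5857 with processed signals. Among differences that passed or were at least 2-fold, and list medians beyond their error, the signs turned for the medians of hair follicle stem cell genes (0.14) and of fibroblast and collagen genes (0.13) and for Ucp1 (-0.11) in Eng+/- with median centring, and for Bmpr2 (0.27) and Spry2 (0.19) in wt by Cy5 alone. The cause was not tested. Of 69 named genes that passed in Eng+/- 68 kept their direction in every alternative run, Ucp1 being the exception, and 0 kept their call in all. Saturation of up to 1846 spots limits the bright keratin, muscle and fat probes, and background limits Shh and Gpr143.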

Other observations

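A few members of further lists passed in the Eng+/- pair without their lists standing apart. Ogn, osteoglycin of the dermal matrix, rose by 1.44 and Col5a2, a collagen chain, fell by 1.41, in a list of 24 fibroblast and collagen genes with a median of -0.45. Nfatc1, a factor of bulge stem cells, rose by 1.77 and read -1.21 in wt. Crabp1, a retinoid-binding protein of the dermal papilla, rose by 0.99. Cd3d, a T cell receptor subunit, rose by 1.26 and read -0.73 in wt. These genes were chosen after their values were seen. Red cell genes, which track blood in the sample, had medians of 0.32 in wt and 0.53 in Eng+/- over 7 genes.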
